A study of Mus musculus with 8 samples.

Results

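The phagocyte NADPH oxidase subunits are described here in tumor-associated cells and in normal microglia. The members were the 5 genes Cybb, Cyba, Ncf1, Ncf4 and Rac2, taken by symbol from a table of 38026 genes, where each had 1 row. All 5 were among the 15262 genes tested, which had at least 1 TPM (a transcript level already divided by length and by the library's total) in at least 3 libraries. The RNA came from cells caught with magnetic beads against CD11b, an integrin subunit of microglia, macrophages, monocytes and granulocytes, after papain digestion and removal of myelin. The 5 TAM libraries were tumor-associated microglia and macrophages from C57BL/6 mice with a brain tumor, medulloblastoma by the series title, aged 68, 90, 61, 66 and 62 days for replicates 1 to 5. The 3 microglia libraries were cells from normal cerebral cortex of C57BL/6 mice, all aged 60 days. TAM libraries listed 12683 to 14242 genes at 1 TPM or more, and microglia libraries 14375 to 16619. The labels give no genotype for the tumor mice and do not say whether animals were pooled, so the p-values measure the spread between these libraries. Tumor and cortex are different sites and the ages do not overlap, so effects of the tumor, the site and the age cannot be told apart.

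The oxidase makes superoxide by moving electrons from NADPH inside the cell to oxygen outside it or in a phagosome. Its membrane part, cytochrome b558, is a pair of proteins, of which the Cybb product (gp91phox, also called NOX2) carries the electron path and the Cyba product (p22phox) keeps it stable. Other subunits lie in the cytosol of the resting cell, among them the Ncf1 product (p47phox), which organizes assembly, and the Ncf4 product (p40phox), which binds a phagosomal lipid. Rac2, a small GTPase of blood cells, or its relative Rac1 joins them on activation. Microglia, macrophages and neutrophils all use this enzyme.

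The sequences of 3 promoters are shown because their genes bracket the result, Cybb and Cyba being the membrane pair and Ncf1 the member with the lowest fold change. They are RefSeq windows on GRCm38.p6, all on the minus strand, from 250 bases before to 50 bases after the start of the gene, written from 5′ to 3′. Capitals mark matches on either strand to GAGGAA (the core read by the myeloid factor PU.1), an ETS-IRF composite (GGAA, any 2 bases, GAAA), an interferon response core (GAAA, any 2 bases, GAAA) or TGACTCA (AP-1).
Cybb, chrX:9469275-9469574: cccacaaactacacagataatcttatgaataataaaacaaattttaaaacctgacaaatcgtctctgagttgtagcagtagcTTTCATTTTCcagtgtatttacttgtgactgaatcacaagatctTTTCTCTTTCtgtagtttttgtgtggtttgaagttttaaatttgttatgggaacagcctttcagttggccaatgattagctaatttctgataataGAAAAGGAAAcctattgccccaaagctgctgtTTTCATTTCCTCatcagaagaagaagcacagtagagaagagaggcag
Cyba, chr8:122432891-122433190: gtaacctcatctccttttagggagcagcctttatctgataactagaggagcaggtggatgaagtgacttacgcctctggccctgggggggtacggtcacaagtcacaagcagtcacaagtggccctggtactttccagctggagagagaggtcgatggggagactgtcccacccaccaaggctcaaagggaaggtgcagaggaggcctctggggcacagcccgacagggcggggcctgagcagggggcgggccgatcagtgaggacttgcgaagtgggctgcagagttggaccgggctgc
Ncf1, chr5:134229576-134229875: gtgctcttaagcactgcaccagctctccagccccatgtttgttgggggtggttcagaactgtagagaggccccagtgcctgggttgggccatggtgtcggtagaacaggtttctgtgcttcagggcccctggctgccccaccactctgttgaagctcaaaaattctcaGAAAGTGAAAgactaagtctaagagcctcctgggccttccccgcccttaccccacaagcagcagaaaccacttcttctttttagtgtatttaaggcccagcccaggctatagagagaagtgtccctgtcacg
The Cybb window held GAGGAA on the reverse strand, overlapping a reverse-strand match to the ETS-IRF composite just after the start site, and 3 interferon response cores. The Ncf1 window held 1 interferon response core, and in the Cyba window none of these letters were found. Of all 32851 promoter windows of this length, 28.3% held GAGGAA, 2.72% the ETS-IRF composite, 3.44% the interferon response core and 5.20% TGACTCA. The RefSeq start of Cybb lies inside the longer interval that the deposited table gives for the gene. These matches describe the letters only.

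The membrane pair and Rac2 were higher in TAMs, while the cytosolic subunits Ncf1 and Ncf4 were lower on TPM only. Of the 5 members 3 rose and 2 fell on TPM at an adjusted p of 0.05 (limma), where 8.22% of all tested genes were higher and 56.4% lower. The median log2 fold change was 0.86 over the members and -0.65 over all tested genes. That shift of most genes makes the zero of the TPM scale uncertain, so each result is also given on rescaled TPM, in which each library is divided by its median ratio to the geometric mean of all libraries. There the median was 1.68 over the members and 0.05 over all tested genes, and 3 members were higher and 0 lower, against 27.3% of all tested genes higher and 21.2% lower. On that scale Ncf1 and Ncf4 were not called, with adjusted p-values of 0.144 and 0.280 (limma). Cybb, Cyba and Rac2 were called higher on both scales, as were 8.18% of all tested genes.

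**Figure D1:**
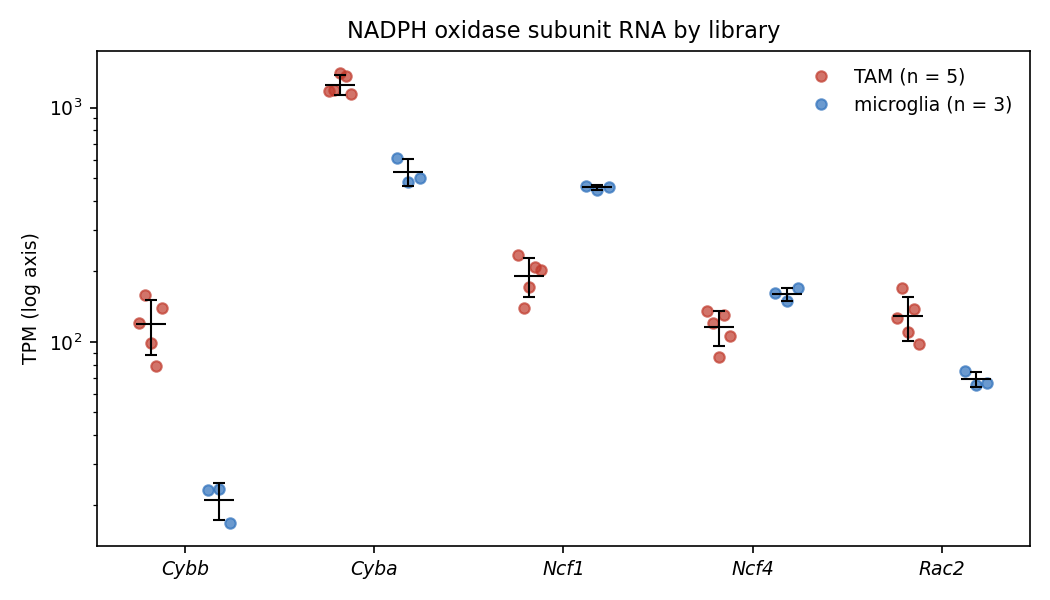
TPM of each NADPH oxidase subunit in every library, on a log axis, with TAM libraries in red to the left of microglia libraries in blue. Bars show the mean and SD (n = 5 and n = 3), and in none of the 5 genes do the groups overlap.

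Cybb (chromosome X, 9435252 to 9487771 on mm10, as are all coordinates of the table given here) encodes the catalytic subunit. It was at 120, 158, 99.1, 78.6 and 140 TPM in TAM replicates 1 to 5, against 23.2, 23.5 and 16.8 TPM in microglia replicates 1 to 3. The lowest TAM library, replicate 4, was still well above every microglia library. The mean was 119.1 ± 31.5 TPM in TAMs (SD, n = 5) and 21.1 ± 3.79 TPM in microglia (SD, n = 3). The log2 fold change on log2(TPM + 1) was 2.41 (SE 0.23, limma, adjusted p = 0.000130), and on rescaled TPM it was 3.21 (SE 0.25, limma, adjusted p = 7.72e-05). Cybb ranked 130 of the 15262 tested genes by fold change on TPM and 107 on rescaled TPM. Among tested genes Cybb stood above 91.5% to 95.8% of the others in TAM libraries and above 51.7% to 65.8% in microglia libraries, a ranking within each library that scaling a whole library does not change.

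Cyba (chromosome 8, 122424772 to 122432940) encodes the partner that steadies the catalytic subunit in the membrane. Its values were 1181, 1186, 1404, 1365 and 1143 TPM in TAM replicates 1 to 5 and 612, 483 and 500.0 TPM in microglia replicates 1 to 3. The groups did not overlap, and microglia replicate 1 was the highest of its group. The mean was 1256 ± 119 TPM in TAMs and 531 ± 69.9 TPM in microglia (SD, n = 5 and n = 3). Cyba rose by 1.24 on the log2 scale (SE 0.13, limma, adjusted p = 0.000166), and by 2.07 with an SE of 0.25 on rescaled TPM (limma, adjusted p = 0.000503). It was the most abundant member in all 8 libraries and varied least among TAMs, with a coefficient of variation of 9.50% against 17.3% to 26.4% for the other 4.

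Rac2 (chromosome 15, 78559169 to 78572783) encodes the GTPase. It was at 126, 170, 110, 138 and 98.3 TPM in TAM replicates 1 to 5, against 75.3, 65.4 and 66.9 TPM in microglia replicates 1 to 3. TAM replicate 2 was the highest and replicate 5 the lowest of the TAMs, all above every microglia library. The mean was 128 ± 27.6 TPM in TAMs and 69.2 ± 5.32 TPM in microglia (SD, n = 5 and n = 3). Its log2 fold change was 0.86 (SE 0.17, limma, adjusted p = 0.00286), and 1.68 with an SE of 0.28 on rescaled TPM (limma, adjusted p = 0.00203).

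Ncf1 (chromosome 5, 134220053 to 134229625) encodes the organizer subunit. It was at 236, 140, 172, 209 and 203 TPM in TAM replicates 1 to 5 and at 465, 446 and 459 TPM in microglia replicates 1 to 3. Every TAM library was below every microglia library, TAM replicate 2 being the lowest, and the microglia libraries lay close together, with a coefficient of variation of 2.20% against 19.2% in TAMs. The mean was 192 ± 36.8 TPM in TAMs and 457 ± 10.1 TPM in microglia (SD, n = 5 and n = 3). Ncf1 fell by 1.27 on the log2 scale (SE 0.16, limma, adjusted p = 0.000406). On rescaled TPM its value was -0.44 with an SE of 0.23 and it was not called, with 3 of 5 TAM libraries below every microglia library. On the rank within a library it stood above 95.3% to 97.4% of tested genes in TAMs and above 98.2% to 98.3% in microglia.

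The 3′ end of Ncf1 overlaps that of Gtf2ird2, a gene on the opposite strand, in the GENCODE annotation of mm10. Exons of both cover 408 of the 3663 exon bases of Ncf1, or 11.1%. Gtf2ird2 was itself at 8.43 to 16.6 in TAMs against 65.1 to 107 TPM in microglia (log2 fold change -2.79, limma, adjusted p = 6.69e-05). Whether the counting used strand is not given in the sources used here, so reads of the shared bases cannot be told apart, and their part in the Ncf1 value was not tested. Cyba lies within the long locus Gm20388 on the opposite strand, with 0 exon bases shared. No other gene's transcript matched a member at 90% identity or more over 300 bases or more.

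Ncf4 (chromosome 15, 78244801 to 78262580) encodes the lipid-binding subunit. It was at 136, 120, 86.4, 130 and 106 TPM in TAM replicates 1 to 5 and at 162, 149 and 169 TPM in microglia replicates 1 to 3. The groups did not overlap on TPM, though TAM replicate 1 came close to the lowest microglia library. The mean was 116 ± 20.1 TPM in TAMs and 160 ± 10.3 TPM in microglia (SD, n = 5 and n = 3). Ncf4 fell by 0.48 on the log2 scale (SE 0.15, limma, adjusted p = 0.0225), less than the median gene. On rescaled TPM the sign turned, with a value of 0.34, an SE of 0.25 and no call, and only 3 of 5 TAM libraries were above every microglia library. The call on TPM was lost without microglia replicate 1 (limma, adjusted p = 0.0587) or replicate 3 (limma, adjusted p = 0.0839), so no direction is given for Ncf4.

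**Figure D2:**
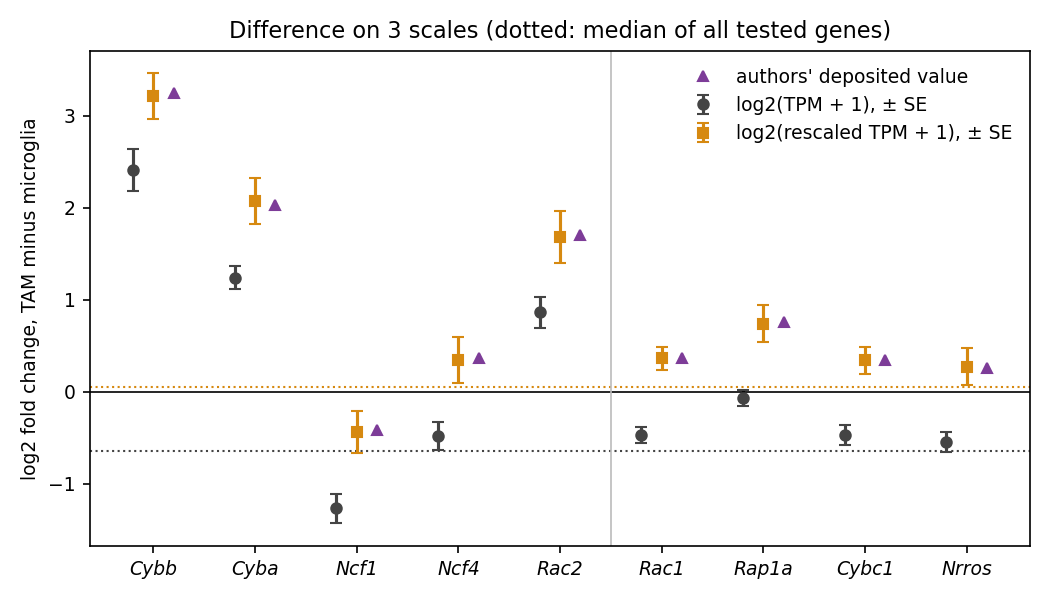
Log2 fold change, TAM minus microglia, of the 5 members (left of the line) and 4 partners (right) on log2(TPM + 1) and log2(rescaled TPM + 1), with SE bars, and as the authors deposited it. Dotted lines are the medians of all tested genes, -0.65 and 0.05, and Cybb, Cyba and Rac2 lie above both on every scale.

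On TPM none of the members overlapped between groups, 3 with TAMs higher and 2 lower, where 7.97% of all tested genes were separated with TAMs higher and 49.7% with TAMs lower. On rescaled TPM 3 members were separated, all with TAMs higher, against 26.0% of tested genes with TAMs higher and 21.3% lower. In the authors' deposited table the DESeq2 log2 fold changes were 3.25 for Cybb, 2.03 for Cyba, 1.70 for Rac2, 0.362 for Ncf4 and -0.421 for Ncf1. In the authors' deposited table, with its p-values adjusted here over 27039 genes, the first 3 were called (adjusted p = 1.84e-28, 4.65e-13 and 2.24e-07) and Ncf4 and Ncf1 were not (0.355 and 0.220), where 17.6% of genes were called higher and 16.0% lower. Those values come from the same libraries.

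The members can also be compared with each other inside each library, since a ratio of TPM values does not depend on how that library is scaled. The membrane pair and Rac2 gained on the cytosolic subunits in every such comparison. Of the 10 pairs of members 9 had ratios that did not overlap between groups. Each of these had an exact two-sided permutation p of 0.0357, the smallest that 5 against 3 libraries allow, and 0.0397 adjusted over the 10 pairs. The 10 ratios are built from the same 5 genes, so they restate the differences above and are not separate evidence. How often other pairs of genes separate was not computed, so the count is not read as particular to the oxidase. Cybb over Ncf1 was 0.509, 1.13, 0.576, 0.376 and 0.686 in TAM replicates 1 to 5, against 0.0498, 0.0527 and 0.0365 in microglia replicates 1 to 3. TAM replicate 2 was the only library with more Cybb than Ncf1 RNA per length. The difference was 3.74 in mean log2 ratio, the largest of the 10 pairs.

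Cyba over Ncf1 averaged 6.75 ± 1.52 in TAMs and 1.16 ± 0.132 in microglia (SD, n = 5 and n = 3), a difference of 2.51 in mean log2 ratio. The cortex cells carried nearly as much Ncf1 as Cyba RNA, and every TAM library at least 5.01 times more Cyba. Cybb over Ncf4 differed by 2.95, Cyba over Ncf4 by 1.73 and Cybb over Rac2 by 1.60 in mean log2 ratio. Ncf1 over Rac2 was 0.826 to 2.07 in TAMs and 6.18 to 6.87 in microglia, a difference of -2.14, and Ncf4 over Rac2 differed by -1.35. Within the membrane pair Cybb over Cyba was 0.0576 to 0.133 in TAMs and 0.0336 to 0.0486 in microglia, a difference of 1.22. Between the cytosolic subunits Ncf1 over Ncf4 was 1.17 to 1.99 in TAMs and 2.72 to 3.00 in microglia, a difference of -0.79. The exception was Cyba over Rac2, at 6.98 to 12.8 in TAMs and 7.38 to 8.12 in microglia, a difference of 0.37 with overlapping groups (exact permutation p = 0.143, and 0.143 adjusted).

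**Figure D3:**
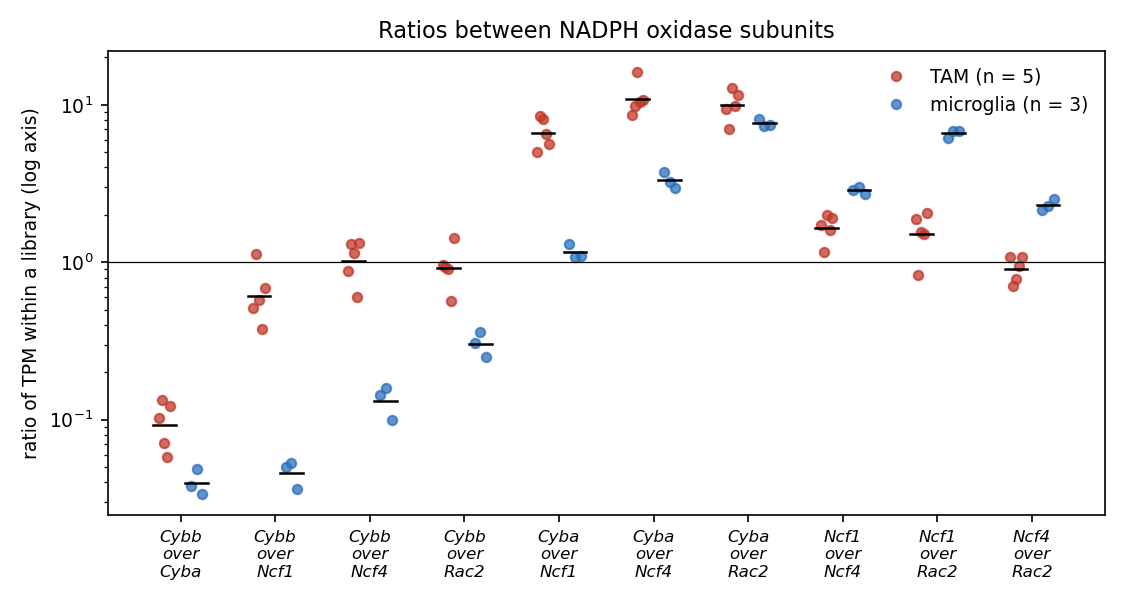
Ratio of TPM between each pair of members within a library, on a log axis, with TAM libraries in red left of microglia libraries in blue and black lines at the mean log2 ratio. The groups are apart in 9 of 10 pairs and overlap for Cyba over Rac2.

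The order of levels was the same in the 3 microglia libraries: Cyba, then Ncf1, Ncf4, Rac2 and Cybb. In TAMs Cyba was first in 5 of 5 libraries and Ncf1 followed in all but replicate 2, while Rac2, Cybb and Ncf4 changed places from library to library and did not differ beyond their spread. Summed over the 5 genes the TPM was 1811 ± 89.3 in TAMs and 1239 ± 88.9 in microglia (SD, n = 5 and n = 3). Of that sum Cybb made up 6.64% ± 2.00 in TAMs and 1.71% ± 0.315 in microglia, and Cyba 69.2% ± 3.80 in TAMs and 42.8% ± 2.54 in microglia. Ncf1 made up 10.6% ± 2.10 in TAMs and 37.0% ± 1.90 in microglia, and Ncf4 6.40% ± 1.10 in TAMs and 12.9% ± 0.913 in microglia. The share of Rac2 was 5.82% to 9.57% in TAMs and 5.52% to 5.63% in microglia.

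**Figure D4:**
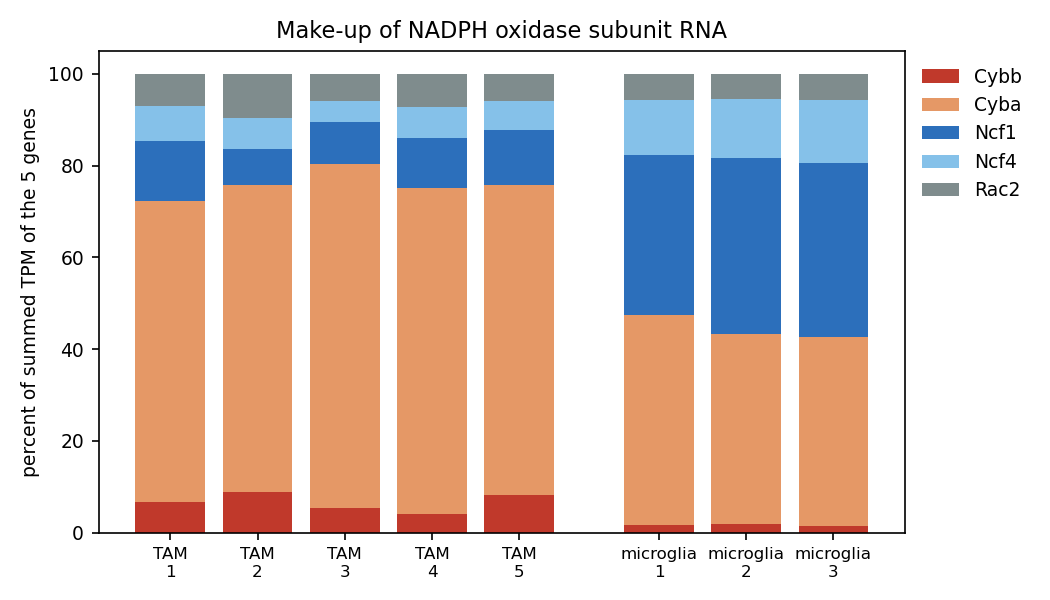
Percent of the summed TPM of the 5 members taken by each, in every library, with the 5 TAM libraries left of the 3 microglia libraries. Ncf1 takes 7.91% to 13.1% in TAMs and 34.8% to 38.2% in microglia.

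Partners of the complex were called lower on TPM but not on rescaled TPM, except Rap1a. Of 5 genes of the partner list (Rac1, Rac3, Cybc1, Rap1a and Nrros) 4 fell and 1 was not called on TPM (limma), with a median of -0.47, and 1 rose and 4 were not called on rescaled TPM, with a median of 0.34. Over all tested genes 56.4% were lower on TPM and 27.3% higher on rescaled TPM, with medians of -0.65 and 0.05. Rac1, the widely expressed relative of Rac2, averaged 220 ± 13.9 in TAMs against 304 ± 22.9 TPM in microglia (log2 fold change -0.47, and 0.36 uncalled on rescaled TPM). Cybc1, a chaperone of the membrane pair listed under an older symbol, and Nrros, which limits the amount of the catalytic subunit, had log2 fold changes of -0.47 and -0.55, and 0.34 and 0.27 uncalled on rescaled TPM. Rap1a, a small GTPase that associates with the membrane pair, ranged over 53.0 to 64.2 TPM in TAMs and overlapped microglia at 59.8 to 64.1 TPM, with a log2 fold change of -0.07 (limma, adjusted p = 0.485). It was called higher at 0.74 on rescaled TPM (limma, adjusted p = 0.0156), a call lost there without microglia replicate 2 or 3.

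No other NADPH oxidase was abundant. Of 9 genes of the other oxidases and their helpers only Nox4, Duoxa1 and Noxo1 reached the level needed for testing, and Nox1, Nox3, Duox1, Duox2, Duoxa2 and Noxa1 were below 1 TPM in all 8 libraries. Noxo1, an organizer like Ncf1 but of the NOX1 enzyme, averaged 2.53 ± 0.979 in TAMs against 9.24 ± 0.855 TPM in microglia (SD, n = 5 and n = 3). Its log2 fold change was -1.57 (limma, adjusted p = 0.000794) and -0.90 rescaled (limma, adjusted p = 0.00475). Duoxa1, a maturation factor of dual oxidases, averaged 0.541 ± 0.384 in TAMs against 7.60 ± 2.23 TPM in microglia. Nox4 averaged 1.18 TPM in TAMs and 2.90 TPM in microglia. Both genes reached the level for testing only through the microglia libraries, so a lower call for them was favoured by the filter and is not counted as a result.

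Among genes that act in or restrain oxidase activation, 2 were higher and 5 lower on both scales, where 8.18% of all tested genes were higher and 21.2% lower. Of the 25 activation genes 2 rose and 17 fell on TPM (median -0.72), and 8 rose and 5 fell on rescaled TPM (median 0.10). These counts are near the shares over all tested genes, 8.22% higher and 56.4% lower on TPM, and 27.3% higher and 21.2% lower rescaled, and the medians near -0.65 and 0.05. Higher on both scales were Hvcn1, the proton channel that balances the charge moved by the oxidase, and Arhgdia, which holds Rac in the cytosol. Hvcn1 averaged 129 ± 34.8 in TAMs against 77.2 ± 12.7 TPM in microglia (log2 fold change 0.70, limma, adjusted p = 0.0324), and the highest microglia library at 91.8 TPM was above TAM replicate 2 at 75.5 TPM. Arhgdia had a log2 fold change of 0.42 (limma, adjusted p = 0.00625). Without TAM replicate 1, 3 or 4, or microglia replicate 2 or 3, 1 gene of this list was higher on TPM.

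Lower on both scales were the kinase genes Prkca and Pak1, the phosphoinositide kinase genes Pik3cg and Pik3r1, and Tiam1, an exchange factor that loads Rac. Pik3r1 averaged 16.7 ± 2.01 in TAMs against 69.9 ± 4.19 TPM in microglia (log2 fold change -2.01, limma, adjusted p = 1.94e-05, and -1.21 rescaled). Pak1 averaged 14.4 ± 3.69 in TAMs against 52.1 ± 1.88 TPM in microglia (log2 fold change -1.82, limma, adjusted p = 0.000213). Prkcd, whose kinase phosphorylates p47phox, averaged 226 ± 56.1 in TAMs against 430 ± 49.1 TPM in microglia, a log2 fold change of -0.95 on TPM and -0.13 uncalled on rescaled TPM. Btk was called in opposite directions, at -0.30 on TPM and 0.51 on rescaled TPM.

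Of 11 transcription factors known to act on oxidase genes 8 were tested, and 0 rose and 6 fell on TPM (median -0.83), with 2 and 2 on rescaled TPM (median 0). Over all tested genes 8.22% rose and 56.4% fell on TPM, and 27.3% rose and 21.2% fell rescaled, so these counts are near the background. Irf1 and Jun were lower on both scales. Irf1 averaged 79.9 ± 16.5 in TAMs against 211 ± 13.8 TPM in microglia (log2 fold change -1.41, limma, adjusted p = 0.000317). Spi1, which encodes PU.1, averaged 270 ± 25.2 in TAMs against 295 ± 26.4 TPM in microglia, a difference within the spread (log2 fold change -0.13, limma, adjusted p = 0.305), and was called higher at 0.69 on rescaled TPM. Irf8 had a log2 fold change of -0.74 on TPM and 0.08 uncalled on rescaled TPM.

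Several genes that supply NADPH were higher on both scales. Of 9 tested genes of NADPH supply 4 rose and 2 fell on TPM (median 0.12), and 7 rose and 0 fell rescaled (median 0.93). Over all tested genes 8.22% rose and 56.4% fell on TPM, and 27.3% rose and 21.2% fell rescaled. The 2 that fell on TPM were Idh2 and Rpia, with log2 fold changes of -1.17 and -1.01, and -0.35 and -0.23 uncalled on rescaled TPM. The 4 that rose on TPM were higher on both scales: Pgls and Pgd of the oxidative pentose phosphate pathway, Taldo1 of its return branch, and the isocitrate dehydrogenase gene Idh1. Pgd averaged 118 ± 7.37 in TAMs against 87.8 ± 2.51 TPM in microglia (log2 fold change 0.42, limma, adjusted p = 0.00296). G6pdx, the entry enzyme of the pathway, averaged 41.3 ± 6.65 in TAMs against 39.4 ± 1.66 TPM in microglia (log2 fold change 0.05, limma, adjusted p = 0.740), called higher at 0.86 on rescaled TPM.

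Of 13 genes that remove superoxide and peroxide, 7 rose and 2 fell on TPM (median 0.34), and 10 rose and 1 fell rescaled (median 1.15). Over all tested genes 8.22% rose and 56.4% fell on TPM, and 27.3% rose and 21.2% fell rescaled. Sod1, the cytosolic superoxide dismutase, averaged 360 ± 29.7 in TAMs against 224 ± 35.8 TPM in microglia (log2 fold change 0.69, limma, adjusted p = 0.00182). Gpx3, a secreted glutathione peroxidase, averaged 186 ± 67.9 in TAMs against 30.4 ± 6.04 TPM in microglia (log2 fold change 2.51, limma, adjusted p = 0.000314). The peroxiredoxin genes Prdx1 to Prdx5 were higher on both scales, Prdx1 most with a log2 fold change of 1.22. Prdx6 was not called on either scale, with log2 fold changes of -0.75 on TPM and 0.06 rescaled. Sod3, the extracellular dismutase, averaged 0.263 ± 0.169 in TAMs against 9.63 ± 6.29 TPM in microglia. Sod3 is among the genes counted as lower, but it reached the level for testing only through microglia, so nothing is read from its call. The other gene counted as lower on TPM was the catalase gene Cat, at 42.4 ± 8.92 in TAMs against 60.4 ± 4.15 TPM in microglia. Its log2 fold change was -0.52 (limma, adjusted p = 0.0211), and 0.29 uncalled on rescaled TPM.

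The make-up of the libraries moved with these groups. In bulk RNA fewer cells of a type and less RNA per cell cannot be told apart. The marker counts stand beside 8.22% of all tested genes higher and 56.4% lower on TPM, and 8.18% higher on both scales. Of the 13 microglia and macrophage markers 4 were higher and 5 lower on TPM, with a summed level of 16665 to 30233 TPM in TAMs and 24309 to 29888 TPM in microglia, so the labelled cell type was carried by both groups. Of 9 monocyte-derived markers 5 were higher and 0 lower, with sums of 5320 to 11787 TPM in TAMs and 807 to 1106 TPM in microglia, most of it Lyz2. Of 8 tested neutrophil markers 4 were higher and 2 lower, with sums of 247 to 665 TPM in TAMs and 434 to 481 TPM in microglia. Called higher on both scales were S100a8 (72.1 ± 46.5 in TAMs against 8.24 ± 4.06 TPM in microglia), S100a9 (101 ± 86.8 in TAMs against 11.0 ± 4.41 TPM in microglia), Retnlg (35.4 ± 54.2 in TAMs against 1.15 ± 0.528 TPM in microglia) and Cxcr2 (2.86 ± 1.07 in TAMs against 1.25 ± 0.363 TPM in microglia). Most of the microglia sum was Csf3r, at 171 ± 45.6 in TAMs against 410 ± 31.9 TPM in microglia. Of the same list Ly6g, Mpo and Elane stayed below 1 TPM in all 8 libraries, and no presence or absence of neutrophils is read from these values.

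TAM replicate 2, labelled with an age of 90 days, had the highest neutrophil sum and the lowest microglia and macrophage sum, and also the most Cybb and Rac2 and the least Ncf1. Without it the log2 fold changes were 2.30 for Cybb, 1.26 for Cyba, 0.75 for Rac2 and -1.16 for Ncf1, all still called on TPM (limma, adjusted p = 0.000204, 0.000287, 0.00237 and 0.000255), and Cybb over Ncf1 still differed by 3.52. For the lists that follow, 56.4% of all tested genes were lower and 8.22% higher on TPM, so lower counts in such short lists say little. The endothelial list was lower in 5 of 5 genes, with sums of 11.4 to 62.8 TPM in TAMs and 469 to 1411 TPM in microglia. The astrocyte list was lower in 3 of 4, with sums of 3.87 to 65.0 TPM in TAMs and 70.4 to 342 TPM in microglia. Of 2 tested B cell markers 1 was higher and 0 lower, with sums of 51.6 to 605 TPM in TAMs and 8.04 to 17.8 TPM in microglia. The higher one was Igkc, at 28.0 to 591 in TAMs against 0.948 to 9.90 TPM in microglia (log2 fold change 4.59, limma, adjusted p = 0.00527), while Ms4a1 and Cd79a were below 1 TPM throughout. As Igkc reached the level for testing only through the TAM libraries, nothing is read from its call. The T cell sums were 1.59 to 3.22 TPM in TAMs and 4.17 to 8.50 TPM in microglia. The 2 of 3 tested T cell markers called lower, and 1 of the astrocyte markers called lower, reached the level for testing only through microglia. The 1 tested eosinophil marker was not called. The part of these other cells in the oxidase results was not tested.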

How the data were processed

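RNA of 5 TAM and 3 microglia samples was measured. The deposited table lists TPM for each gene and library, per the file headers, and a log2 fold change and unadjusted p-value that the authors computed with DESeq2, per the submitters' processing notes. Those notes also name mm10 and FastQC. The sources used here state neither the quantifier nor whether strand was used. Groups came from the titles, and 3 unnamed columns were not used. TPM keeps no read depth, which therefore stays unknown.

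The test was limma 3.58.1 (R 4.3.3, trend on mean level) on log2(TPM + 1) of the 15262 genes reaching 1 TPM in 3 or more of the 8 libraries. Benjamini-Hochberg adjustment covered all of them, at 0.05. Fold changes on this scale understate changes of low genes. The fit was tested on simulated data in which few genes were shifted. That setting lacks the shift of most genes seen here, so it cannot judge calls that depend on scaling. Member ratios were compared by exact permutation (scipy 1.17.1), and transcripts by blastn 2.17.0. Alternatives changed scaling, filter, pseudocount, trend, age, replicate block, 3 abundant features and single libraries. All members are named, as are list genes called on both scales, and others as values. Members and lists were chosen with earlier results of these data known. A few list genes are not reported here, and list counts leave them out.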

Additional observations from a re-analysis of the deposited data

Results flagged for a closer look

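A single library far from the other TAM libraries was looked for in 24 sets of TAM values: the TPM of 6 genes, the 10 ratios and 8 marker sums. Chance gives about 1 such library in 20 sets. The ratio of Cyba to Ncf4 in TAM replicate 3 stood at 16.2, while the remaining TAM libraries lay at 8.67 to 10.8 and microglia at 2.96 to 3.76. The summed T cell markers in TAM replicate 5 reached 3.22 TPM, while the remaining TAM libraries lay at 1.59 to 2.02 TPM and microglia at 4.17 to 8.50 TPM.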

How the results depend on the processing

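Cybb, Cyba and Rac2 stayed higher in TAMs and called under all 23 alternatives, and the 10 ratios kept their direction under each left-out library and a pseudocount of 1. On rescaled TPM Ncf1 was -0.44 and uncalled, Ncf4 reversed to 0.34, and 0 members were lower. There the partner list had 1 gene higher and 0 lower, activation 8 and 5, transcription factors 2 and 2, NADPH supply 7 and 0, removal 10 and 1, and all tested genes 4167 and 3241.

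Without 3 abundant features (Mir6236, Mir6240 and Gm15662) Ncf4 was -0.29 and uncalled, 1 member was lower, activation had 4 higher, transcription factors 1 higher and removal 1 lower. With no filter activation had 1 higher. Age and a pseudocount of 0.1 changed no member's call. All microglia libraries are of the same age, so the age term rests on the TAM libraries alone and cannot separate age from group. Deviations of same-numbered libraries had r = 0.150, 0.0139 and -0.0507, within the -0.246 to 0.181 of other pairs. With 3 microglia libraries these values cannot show whether the numbers pair the samples. With the replicate block Ncf4 was -0.50 and uncalled, 1 member was lower and removal had 1 lower. The block called 1103 tested genes higher and 8613 lower.

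Leaving out 1 library gave, on TPM and then rescaled, -1.35 to -1.16 and -0.57 to -0.28 for Ncf1, and -0.54 to -0.38 and 0.18 to 0.50 for Ncf4, added after seeing the data where rescaled. Members lower numbered 1 to 2, and 0 rescaled. Partners higher numbered 0, and 0 to 3 rescaled, and lower 3 to 4, and 0 to 1 rescaled. Activation higher numbered 1 to 2, and 5 to 10 rescaled, and lower 15 to 17, and 3 to 6 rescaled. Transcription factors higher numbered 0 to 1, and 0 to 2 rescaled, and lower 5 to 6, and 1 to 2 rescaled. NADPH supply had 4 higher and 2 lower, and 7 and 0 rescaled. Removal higher numbered 5 to 8, and 9 to 10 rescaled, and lower 0 to 2, and 0 to 1 rescaled. All tested genes higher numbered 894 to 1303, and 2863 to 4433 rescaled, and lower 5581 to 9243, the fewest without microglia replicate 2, and 1546 to 3414 rescaled. The causes were not tested.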

Other observations

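For each member the 2 genes whose deviations from the group means followed it most closely over the 8 libraries were taken, among 7631 genes at or above the median level. These are Pearson values on log2(TPM + 1), given as a description with no test, since the highest of many values is large by selection. Zmynd15 and Oard1 followed Cybb (r = 0.973 and 0.959). Atf3 and Pepd followed Cyba (r = 0.897 and 0.889). Fcgr4 and Gpx1 followed Rac2 (r = 0.980 and 0.966). Procr and Ccni followed Ncf1 (r = 0.991 and 0.984), and Pik3ap1 and H2-T22 followed Ncf4 (r = 0.918 and 0.911). No gene was shared between these pairs.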
